A study of Homo sapiens with 12 samples.

Results

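The miR-548 family is a group of miRNAs whose hairpins derive from MADE1 elements, short inverted-repeat DNA transposons that spread in primate genomes. Its members were taken as every row of the count tables whose name starts with hsa-miR-548, which gave 68 of the 1971 miRNA names listed in all. Of these, 62 were listed in HCT116, 60 in HEK293T and 54 in both lines. Small RNA was sequenced by AQ-seq, a library method made to lessen the bias of adapter ligation. The cells were HCT116, which comes from a human colorectal carcinoma, and HEK293T, which comes from human embryonic kidney. In every group the cells had been rescued with a form of DICER, the RNase III enzyme that releases miRNA duplexes from precursor hairpins. The forms were WT, one lacking the domain that binds double-stranded RNA (dsRBD deletion), and AA, whose changed residues the labels do not give. There were 2 libraries for each of 6 groups, 12 in total, and the labels do not give the DICER status of the cells before rescue, the promoter of the rescue construct, or whether a line was 1 clone. They also do not say whether the libraries of a group came from separate cultures, so p-values measure only the spread between these libraries.

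Miniature inverted-repeat elements such as MADE1 are near-palindromes, so a transcribed copy can fold back into a hairpin that the miRNA machinery cuts. Because the copies are young and alike, the family has many loci with similar mature sequences, and a read may match several of them. DICER measures a hairpin from its end, and its C-terminal RNA-binding domain touches the double-stranded stem near the cleavage site. A miRNA finds its targets mainly through the seed, bases 2 to 8 from its 5′ end.

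Mature sequences from RefSeq (GRCh38 release) matched 47 of the 68 names. They ran from 18 to 23 nucleotides and held 26 different seeds. The sequences of the names on which the results below turn are printed 5′ to 3′, with the seed in capitals, so that alike members can be compared by eye. The first set shares the seed AAAGUAA, the most common in the family (11 names, 6 of them tested in HEK293T).
miR-548b-5p: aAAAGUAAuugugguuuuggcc
miR-548y: aAAAGUAAucacuguuuuugcc
miR-548w: aAAAGUAAcugcgguuuuugccu
miR-548ak: aAAAGUAAcugcgguuuuuga
miR-548aq-5p: gAAAGUAAuugcuguuuuugcc
miR-548j-5p: aAAAGUAAuugcggucuuuggu

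The second set has a different seed in each name but the same kind of A-rich start, and holds 2 names that fell and 3 that rose in a comparison below.
miR-548k: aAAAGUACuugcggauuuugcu
miR-548l: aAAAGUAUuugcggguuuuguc
miR-548n: cAAAAGUAauuguggauuuugu
miR-548an: aAAAGGCAuugugguuuuug
miR-548ai: aAAGGUAAuugcaguuuuuccc

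The third set holds names from the 3p arm, the complementary strand of the hairpin, and miR-548q, which is farthest from every other member (12 edits to the nearest).
miR-548b-3p: cAAGAACCucaguugcuuuugu
miR-548o-3p: cCAAAACUgcaguuacuuuugc
miR-548ar-3p: uAAAACUGcaguuauuuuugc
miR-548q: gCUGGUGCaaaaguaauggcgg

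Of the 47 names with a sequence, 18 lay within 2 edits of another member and 7 within 1 edit. miR-548aj-5p and miR-548g-5p were identical. One name outside the family, miR-570-5p, had exactly the sequence of miR-548ai, aAAGGUAAuugcaguuuuuccc. Their read counts were equal in all 6 HEK293T libraries and differed by 2 to 9 reads in the 6 HCT116 libraries (108 and 117 reads in WT replicate 1). The same reads may therefore be counted under both names, and the values of miR-548ai cannot be assigned to 1 locus.

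The family's loci were scattered. The 51 miR-548 hairpin genes that could be placed on GRCh38 (GENCODE 29) lay on 21 chromosomes. Of these, 32 sat in an intron of a gene on the same strand, none overlapped an exon of a gene on the same strand, and 19 had no gene on their strand. MIR548B (chromosome 6, 119069047 to 119069143, minus strand) lies in an intron of FAM184A. MIR548N (chromosome 7, 34940760 to 34940834, minus strand) lies in an intron of DPY19L1, and MIR548K (chromosome 11, 70283955 to 70284070, plus strand) in an intron of PPFIA1. MIR548L (chromosome 11, 94466495 to 94466580, minus strand) lies in an intron of MRE11, MIR548J (chromosome 22, 26555212 to 26555323, minus strand) in an intron of TPST2, and MIR548AN (chromosome X, 106639814 to 106639896, plus strand) in an intron of CXorf57. MIR548Y (chromosome 14, 47760995 to 47761104, minus strand), MIR548Q (chromosome 10, 12725254 to 12725353, minus strand) and MIR548AI (chromosome 6, 99124609 to 99124696, plus strand) had no gene on their strand.

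The libraries held 824987 to 4498886 miRNA reads, fewest with the dsRBD deletion in both lines, and spike-in RNAs took 0.272% to 3.54% of the reads. A count of 0 allows up to 3 reads, or a level of 0.667 to 3.64 RPM (reads per 1000000 miRNA reads), for counting error only. The cells were checked by miRNAs known from colon epithelium and from embryonic kidney cells. The 6 colon markers summed to between 32123 and 62750 CPM (counts per 1000000 after TMM scaling) in HCT116 and between 7819 and 8938 in HEK293T. Nearly all of the HCT116 sum was miR-31-5p, with a mean of 61637 CPM in HCT116 WT and 5864 CPM in HEK293T WT. Summed without miR-31-5p, the colon markers were lower in HCT116 than in HEK293T with each form, so this list rests on 1 marker. The 4 kidney-line markers summed to between 76776 and 130889 CPM in HEK293T and between 10995 and 23329 in HCT116. The colon list was lowest, and the kidney list highest within HCT116, with the dsRBD deletion. Over 14 markers of other cell types the sums were 1795 to 6421 CPM, with at most 3 of the 14 at 0 in a group. Their part in the miR-548 results was not tested.

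miR-548 reads were a small share of all miRNA reads. With WT they came to 585 and 620 RPM in HCT116, and 683 and 676 in HEK293T. With the dsRBD deletion the share was 1310.3 and 1421 in HCT116, and 2549.6 and 2558 in HEK293T. With AA it was 666 and 679 in HCT116, and 646 and 670 in HEK293T. Both libraries of the deletion group thus lay above both of the other groups in each line, and WT and AA lay close together. In HEK293T the 3 most abundant names held 57.6% of the family's level with WT and 77.2% with the deletion, and in HCT116 42.5% and 48.3%. miR-548b-3p led in each library but HCT116 dsRBD deletion replicate 1, where miR-548b-5p held 18.4% of the family's reads.

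On the TMM scale, which compares each name with the rest of the miRNA pool, the summed level in HEK293T was 676 and 702 CPM with WT and 2385 and 2401 CPM with the deletion, a 3.47-fold ratio of means (log2 ratio 1.80). In HCT116 the sums were 663 and 757 CPM with WT and 1116 and 1115 CPM with the deletion, a 1.57-fold ratio (log2 ratio 0.65). With AA the sums were 694 and 692 CPM in HEK293T and 692 and 707.7 CPM in HCT116, within the range of the WT libraries in both lines. For 2 libraries against 2 the exact two-sided permutation test cannot go below 0.333, the value that it gave for the deletion in each line. It gave 1 for AA against WT in each line. Leaving out miR-548b-3p, the log2 ratio for the deletion in HEK293T was 1.63.

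The reference that the reads are set against changed these ratios. Per 1000 spike-in reads, HCT116 held 160 and 227 miR-548 reads with WT, 83.4 and 92.0 with the deletion and 140 with AA in each replicate. HEK293T held 56.4 and 54.7 with WT, 74.3 and 69.7 with the deletion, and 38.0 and 29.7 with AA. Relative to spike-ins the summed log2 ratio for the deletion was therefore -1.16 in HCT116 and 0.34 in HEK293T. The scaling moved all names alike: the median change of all tested names went from -0.01 to -1.78 in HCT116 and from -0.07 to -1.53 in HEK293T. The changes of single names below are on the TMM scale, relative to the miRNA pool.

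**Figure D1:**
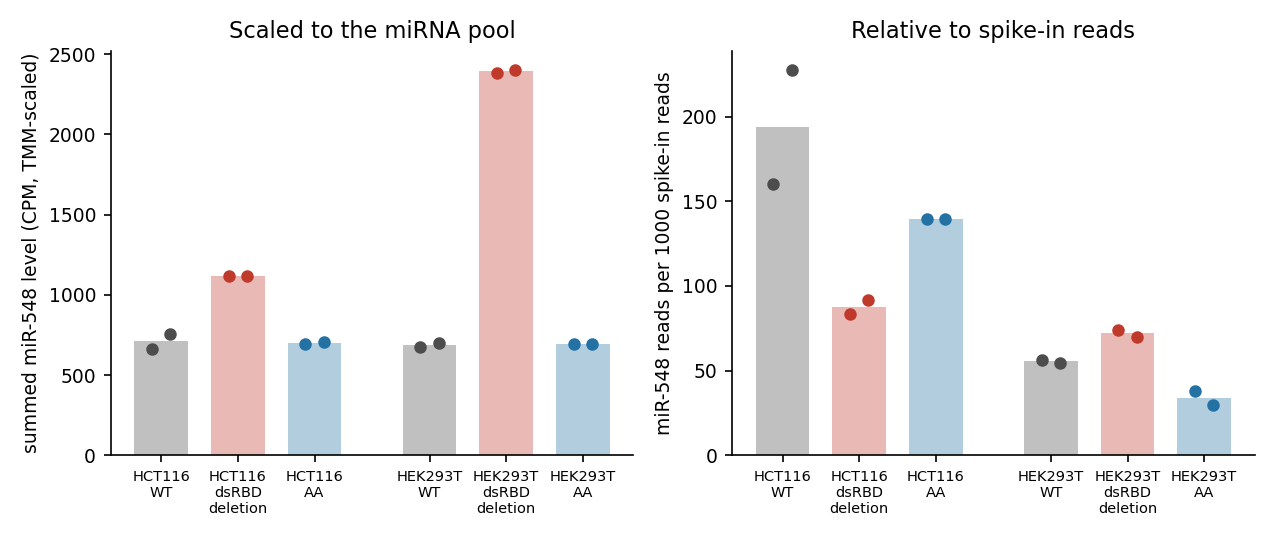
Summed miR-548 level in each library (points, 2 per group) with the group mean (bars, from 0). Left, TMM-scaled CPM; right, miR-548 reads per 1000 spike-in reads. The deletion libraries are highest on the left in both lines; on the right they are lowest in HCT116, at 83.4 and 92.0, and highest in HEK293T, at 74.3 and 69.7.

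Low counts kept many members out of the tests. In HCT116, 27 of 62 listed names passed the filter and in HEK293T 26 of 60, with 22 tested in both lines and 31 in either. The 35 names not tested in HCT116 had at most 14 reads in any library. Among the 34 not tested in HEK293T the highest count was 70, of miR-548c-5p in WT replicate 1, against 2 reads in WT replicate 2 and at most 1 in the other HEK293T libraries. That value rests on 1 library.

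The dsRBD deletion against WT addresses how the level of each miRNA name, relative to the miRNA pool, differs when DICER lacks its RNA-binding domain. In HEK293T the family split into a large rising and a smaller falling set. Of 26 tested names, 15 rose, where 35.9% of all 626 tested miRNA names rose, and 6 fell, where 39.6% of all names fell (edgeR quasi-likelihood F test, Benjamini-Hochberg over all names). The median log2 change was 1.49 over the tested miR-548 names and -0.07 over all names. Among the risers, miR-548ai, miR-548ak, miR-548ar-3p, miR-548au-5p and miR-548v passed the filter only through the deletion libraries, where they were high. Their rise is therefore partly built into their being tested, and both the count of risers and the median include them. Relative to spike-ins 6 rose and 8 fell. On that scale the median log2 change was 0.05 over the miR-548 names and -1.53 over all names. The share of all names called was not counted there.

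The most abundant risers came from both arms. miR-548b-3p measured 301 and 287 CPM with WT, 1129.8 and 1219.9 with the deletion, and 241 and 266 with AA. Both deletion libraries lay far above the others, and the change from WT was 2.00 ± 0.17 (log2 ± SE, adjusted p = 1.28e-06). miR-548a-3p went from 51.0 and 39.8 CPM to 435 and 406, with 58.2 and 57.3 in AA. This was the largest rise among the tested members, at 3.21 ± 0.21 (adjusted p = 1.97e-07). miR-548y measured 52.4 and 61.7 CPM with WT and 242 and 264 with the deletion (2.15 ± 0.21, adjusted p = 4.16e-06), and AA, at 65.6 and 57.3, overlapped with WT.

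The next risers started near 10 CPM or below. miR-548an, whose hairpin lies in an intron on chromosome X, went from 10.3 and 11.1 CPM to 55.6 and 72.7 (2.58 ± 0.28). miR-548d-3p went from 9.56 and 12.6 CPM to 59.1 and 60.5 (2.42 ± 0.27). miR-548o-3p went from 5.67 and 8.48 CPM to 42.4 and 34.4 (2.41 ± 0.31). In these 3 names no deletion library came near a WT library. miR-548a-5p, which pairs by name with miR-548a-3p, went from 7.44 and 7.60 CPM to 43.3 and 39.8 (2.45 ± 0.28), and miR-548ai from 2.83 and 4.38 CPM to 26.5 and 14.5 (2.45 ± 0.46). miR-548q, the member least like the others in sequence, went from 4.96 and 3.51 CPM to 21.2 and 14.5 (2.07 ± 0.50). Adjusted p lay between 9.20e-06 for miR-548an and 0.00311 for miR-548q.

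Smaller rises were seen in miR-548w, from 26.6 and 28.9 CPM to 86.5 and 67.3 (1.46 ± 0.25, adjusted p = 0.000285), and in miR-548b-5p, from 35.1 and 43.3 CPM to 106 and 88.0 (1.30 ± 0.24, adjusted p = 0.000596). The remaining risers were scarce: miR-548au-5p, miR-548ak, miR-548ar-3p and miR-548v had WT means of 1.76, 1.68, 1.91 and 2.15 CPM and rose by 2.44, 2.07, 1.99 and 1.53 on the log2 scale. They had at most 12 reads in any WT or deletion library, which limits the precision of these sizes.

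The names that fell in HEK293T all had a WT mean of 38.9 CPM or less. miR-548h-5p measured 30.5 and 47.4 CPM with WT, 15.9 and 15.3 with the deletion, and 58.9 and 52.3 with AA. The deletion libraries were the lowest of the 6, and the change was -1.32 ± 0.33 (adjusted p = 0.00351). miR-548k went from 22.3 and 41.8 CPM to 12.4 and 16.1 (-1.17 ± 0.39, adjusted p = 0.0169). Its call was lost without WT replicate 2 (-0.78, adjusted p = 0.0879) and without deletion replicate 1 (-1.001, adjusted p = 0.0789). miR-548e-3p went from 14.9 and 13.2 CPM to 2.65 and 5.36 (-1.76 ± 0.44, adjusted p = 0.00403), and miR-548j-5p from 11.0 and 14.6 CPM to 3.53 and 2.30 (-2.14 ± 0.48, adjusted p = 0.00200).

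The last 2 that fell were nearly unread with the deletion. miR-548l had 15 and 12 reads with WT and 0 and 0 with the deletion, which is at least 1.78-fold lower when 0 is set to 3 reads per library. miR-548ae-5p had 11 and 14 reads with WT and 1 and 0 with the deletion (adjusted p = 0.00842). The other 5 tested names were not called: miR-548n (2.83 and 14.9 CPM with WT, 3.53 and 4.59 with the deletion), miR-548e-5p, miR-548ay-3p, miR-548aw and miR-548aq-5p. In miR-548n the deletion libraries lay between the 2 WT libraries, and its log2 change went from -1.15 to -1.88 (adjusted p = 0.00707) without WT replicate 1 and to 0.39 without WT replicate 2.

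In HCT116 the family moved less. Of 27 tested names, 6 rose, where 28.1% of all 795 tested names rose, and 1 fell, where 34.1% of all names fell. Among the miR-548 names the shares were 22.2% higher, which is near the share over all names, and 3.70% lower. The median log2 change was 0.50 over the members and -0.01 over all names. The median over the members includes miR-548ae-5p and miR-548aw, which would not have passed the filter without the deletion libraries, where they were high. The split depended on the scaling: 14 rose and 0 fell with library totals alone, and 0 rose and 16 fell relative to spike-ins. The median log2 change over all names was 0.52 with library totals and -1.78 relative to spike-ins. Over the miR-548 names it was -1.27 relative to spike-ins. The share of all names called was not counted on these scales, so these counts do not set the family apart.

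miR-548b-5p was the largest riser in HCT116. It measured 77.8 and 71.4 CPM with WT, 205 and 172 with the deletion, and 88.2 and 90.7 with AA (deletion against WT 1.33 ± 0.16, adjusted p = 3.36e-05). miR-548n went from 30.96 and 41.2 CPM to 89.8 and 87.5 (1.30 ± 0.19, adjusted p = 0.000169), with 37.8 and 39.6 in AA. miR-548a-5p went from 17.9 and 16.9 CPM to 40.3 and 44.6 (1.30 ± 0.22, adjusted p = 0.000379), and miR-548ai from 27.2 and 37.3 to 82.6 and 73.0 (1.27 ± 0.21, adjusted p = 0.000369). In all 4 names both deletion libraries lay above both libraries of WT and of AA.

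Of the 3p names, miR-548b-3p and miR-548a-3p were called higher in this line. miR-548b-3p measured 136 and 144.5 CPM with WT, 203 and 240 with the deletion, and 157 and 150 with AA, a change of 0.67 ± 0.15 from WT to the deletion (adjusted p = 0.00291). miR-548a-3p went from 32.7 and 33.4 CPM to 41.3 and 64.3 (0.72 ± 0.22, adjusted p = 0.0160), and the 2 deletion libraries differed from each other by more than the lower one differed from WT. Without deletion replicate 2 its change was 0.23 (adjusted p = 0.465). miR-548e-3p was the name that fell, from 20.1 and 17.5 CPM to 11.4 and 11.0 (-0.76 ± 0.28, adjusted p = 0.0389). Its call did not hold with replicate as a block (adjusted p = 0.0508), without WT replicate 1 (0.0938) or without deletion replicate 2 (0.123).

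Abundant names were also among those not called. miR-548d-3p measured 78.3 and 76.5 CPM with WT and 66.1 and 71.9 with the deletion (-0.16 ± 0.21). miR-548w measured 68.2 and 69.8 CPM with WT and 76.4 and 84.6 with the deletion (0.23 ± 0.16). For miR-548d-5p the WT libraries were 50.8 and 118 CPM, so that the deletion libraries, 129 and 128, exceeded one of them far and the other slightly (0.61 ± 0.33, adjusted p = 0.132). Without WT replicate 2 its change was 1.26 (adjusted p = 2.48e-06) and without WT replicate 1 it was -0.01.

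**Figure D2:**
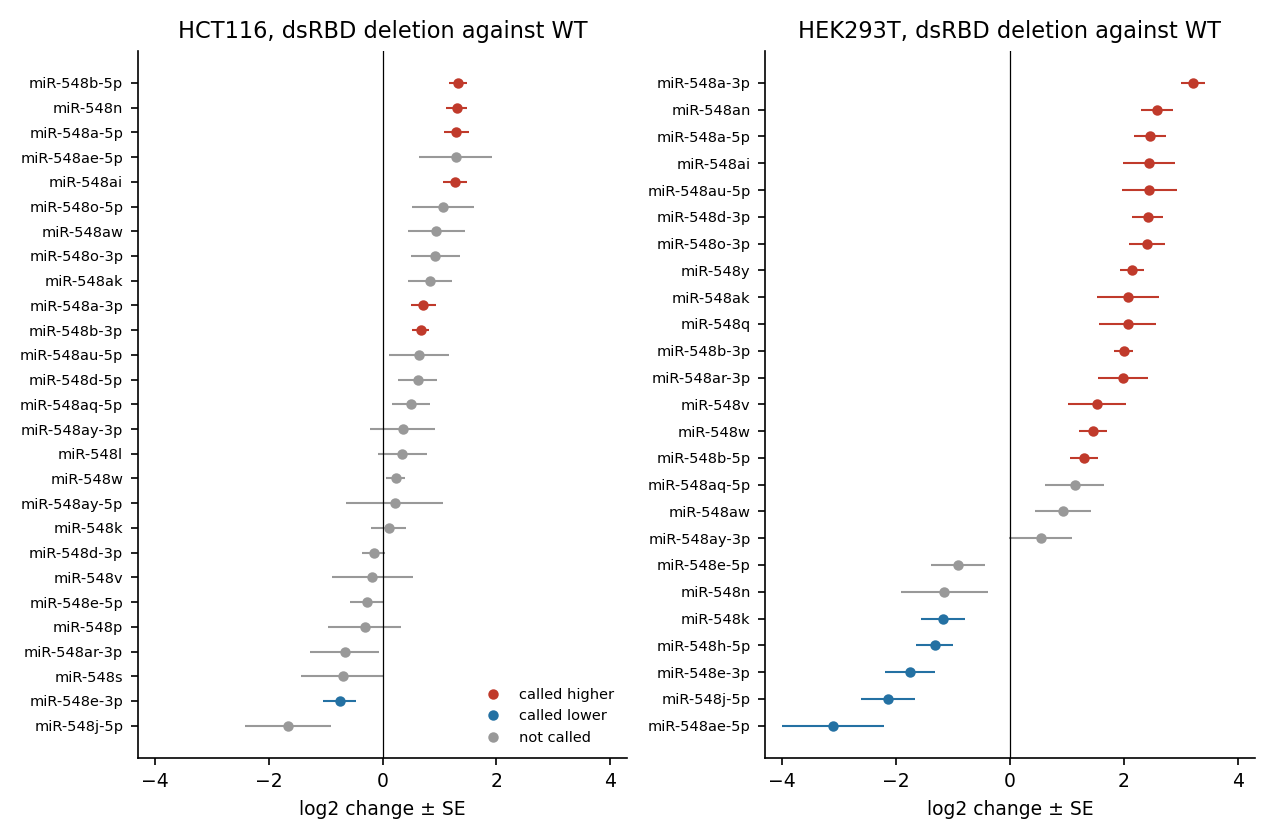
log2 change ± SE of each tested miR-548 name, dsRBD deletion against WT, on the TMM scale, sorted within a line (miR-548l in HEK293T is left out because both deletion libraries had 0 reads). Red names were called higher, blue lower and grey not called; the range is wider in HEK293T, up to 3.21, than in HCT116, up to 1.33.

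Some names were called in both lines. Of the 22 names tested in both lines, 5 were called higher in both (miR-548a-3p, miR-548a-5p, miR-548ai, miR-548b-3p and miR-548b-5p), which is 83.3% of the HCT116 list and 33.3% of the HEK293T list. miR-548e-3p was called lower in both, which is 16.7% of the HEK293T list of lower names. No name was called in opposite directions. The same overlap was not counted over all miRNA names, so these shares have no background and do not show a trait of the family. The difference itself was tested over all 12 libraries: of 32 tested names, 11 had a higher deletion effect in HEK293T than in HCT116, where 22.4% of all 844 tested names did, and 3 a lower one, where 12.4% did. The count of 11 was 5 with library totals, 5 by DESeq2, 7 without a filter and 6 without HCT116 dsRBD deletion replicate 2, and the count of 3 was 1 without HEK293T dsRBD deletion replicate 2. The median difference in log2 change was 1.48 over the miR-548 names and 0.34 over all names.

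miR-548a-3p had the most clear-cut difference, 2.83 ± 0.30 in log2 change between the lines (adjusted p = 1.64e-07), followed by miR-548d-3p at 2.88 ± 0.38 (adjusted p = 2.15e-06) and miR-548b-3p at 1.64 ± 0.25 (adjusted p = 1.49e-05). miR-548w differed by 1.54 ± 0.32 (adjusted p = 0.000609). miR-548n differed the other way, by -2.18 ± 0.74 (adjusted p = 0.0241), since it rose in HCT116 and was not called in HEK293T. Its HEK293T WT libraries were far apart, at 2.83 and 14.9 CPM, with the deletion libraries between them, so the size of this difference is uncertain. For miR-548b-5p the effects were near each other, 1.33 in HCT116 and 1.30 in HEK293T, and their difference was 0.27 ± 0.32 on the scale of the 12 libraries (adjusted p = 0.576).

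Names with the same seed did not move as one. Of the 6 names with the seed AAAGUAA that were tested in HEK293T, miR-548b-5p, miR-548w, miR-548y and miR-548ak rose, miR-548j-5p fell and miR-548aq-5p was not called. In HCT116, 5 of these names were tested and miR-548b-5p alone was called. miR-548j-5p had the lowest log2 change of the 27 there, at 5.29 and 4.21 CPM with WT and 1.03 and 1.74 with the deletion, without passing the test (-1.66 ± 0.76, adjusted p = 0.0775). miR-548k and miR-548l, whose seeds AAAGUAC and AAAGUAU are printed above, both fell in HEK293T, and in HCT116 they measured 0.11 ± 0.31 and 0.35 ± 0.43 and were not called. Since alike names may share reads, these values do not measure single hairpins.

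**Figure D3:**
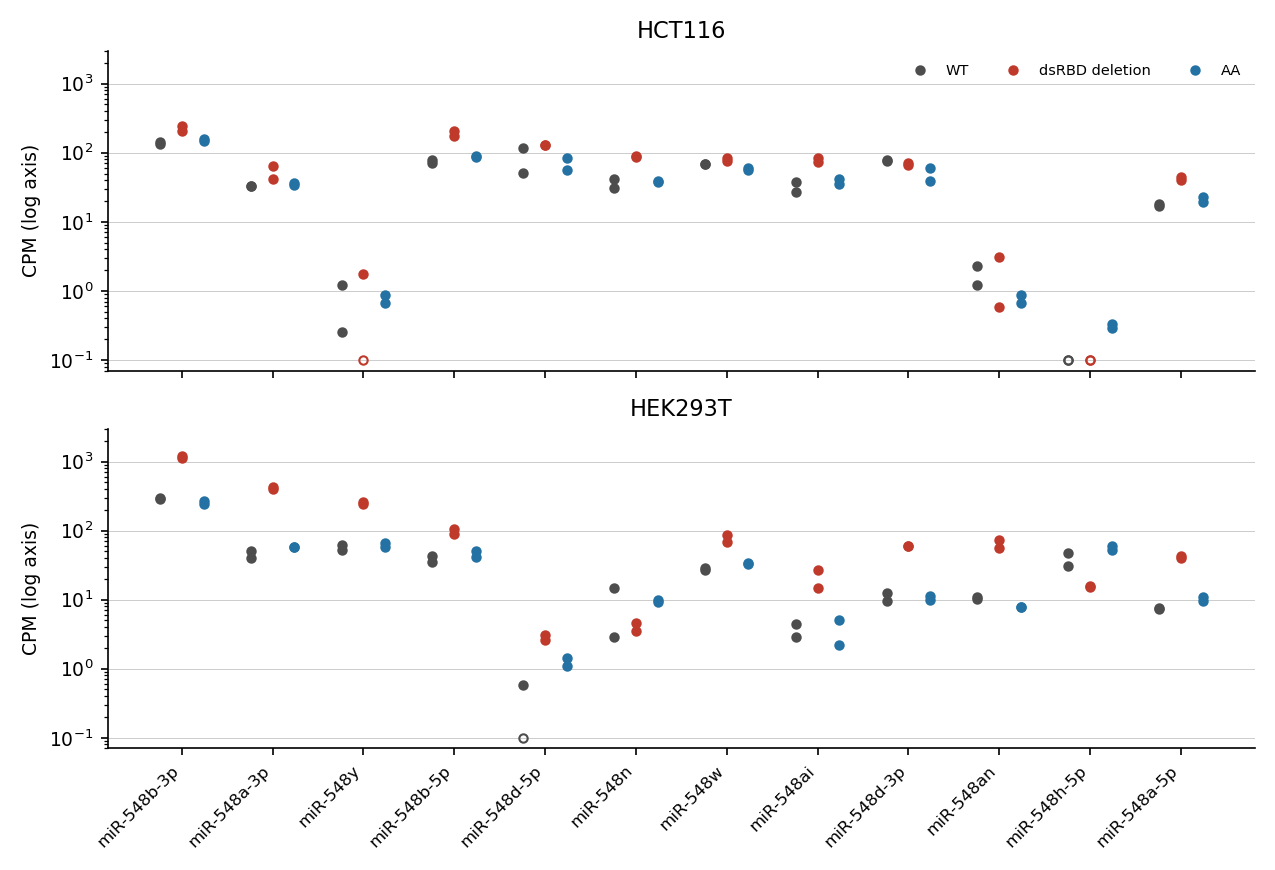
CPM on a log axis of the 12 miR-548 names with the highest group means, for each library (points, 2 per group) in HCT116 (top) and HEK293T (bottom). Open points drawn at the bottom of the axis are libraries with 0 reads. In HEK293T miR-548a-3p lies at 435 and 406 with the deletion, against at most 58.2 in the other groups.

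AA against WT asks the same of the second changed form. No miR-548 name was called in either line. In HCT116, 0 of 27 names were higher, where 1.26% of all names were, and 0 lower, where 6.16% were. In HEK293T, 0 of 26 were higher, where 6.23% of all names were, and 0 lower, where 15.2% were (edgeR). At an unadjusted p under 0.05 there was 1 name in each line, and DESeq2 called 0 as well. The changes ran from -0.65 to 0.62 in HCT116, with a median of 0.05, and from -1.97 to 1.09 in HEK293T, with a median of 0.21. A p that misses the threshold does not show that the levels were equal. Relative to spike-ins 4 names were lower in HCT116 and 2 in HEK293T. On that scale the median log2 change over all names was -0.63 in HCT116 and -0.58 in HEK293T. The share of all names called was not counted.

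In HCT116 the name with an unadjusted p under 0.05 was miR-548d-3p, at 78.3 and 76.5 CPM with WT and 59.6 and 39.6 with AA (-0.65 ± 0.20, adjusted p = 0.0791). Both AA libraries lay below WT, but they differed from each other by about as much as from WT. Without WT replicate 2 its adjusted p was 0.0385. miR-548b-3p (0.13 ± 0.15) and miR-548d-5p (-0.24 ± 0.33), the other leading names of the line, were not called. Without WT replicate 1, miR-548d-5p measured -0.74 (adjusted p = 0.0289). In HEK293T the name was miR-548v, with 8 and 5 reads in WT and 1 and 1 in AA (adjusted p = 0.0993). miR-548b-3p (-0.22 ± 0.16), miR-548y (0.11 ± 0.21) and miR-548a-3p (0.35 ± 0.21), the 3 most abundant names there, were not called.

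**Figure D4:**
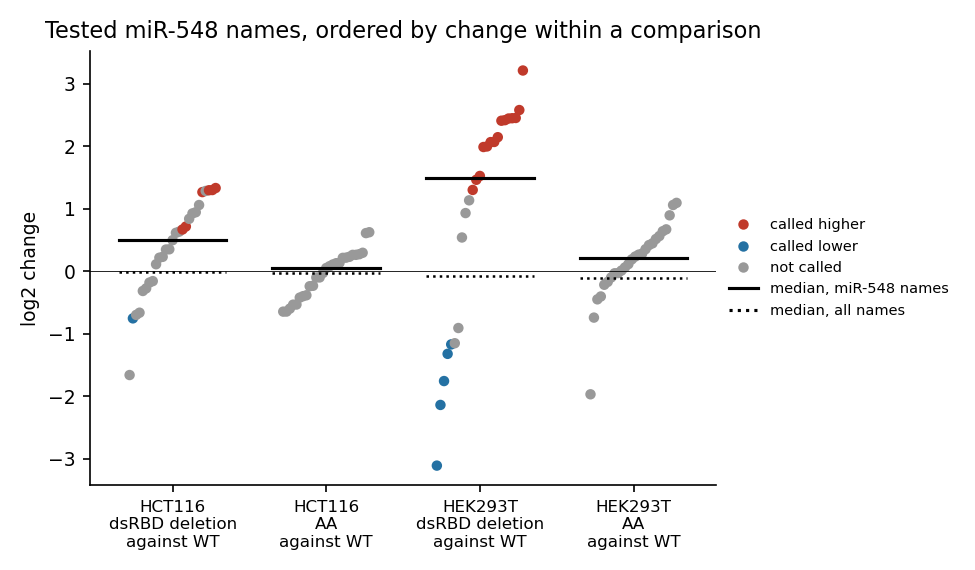
log2 change of each tested miR-548 name (points, sorted within a comparison) in the 4 comparisons with WT; the comparisons of a line share its WT libraries. Solid lines are medians of the miR-548 names and dotted lines medians of all tested names; red points were called higher, blue lower and grey not called (miR-548l is left out of the HEK293T deletion). The medians are 0.50 and 0.05 in HCT116 and 1.49 and 0.21 in HEK293T.

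Set directly against the dsRBD deletion, AA had the opposite pattern to that of the deletion against WT, with which it shares the deletion libraries. In HCT116, 9 of 27 names were lower with AA, where 26.9% of all names were, and 0 higher, where 29.6% were. The lower names included miR-548n (-1.19 ± 0.19), miR-548b-5p (-1.07 ± 0.16) and miR-548b-3p (-0.54 ± 0.15). This count was 3 without AA replicate 1 and 4 without dsRBD deletion replicate 2, and 5 by DESeq2. In HEK293T, 15 of 26 names were lower with AA, where 36.9% of all names were, and 7 were higher, where 36.1% were; the count of 7 was 4 without AA replicate 1. miR-548an (-3.03 ± 0.31) and miR-548a-3p (-2.86 ± 0.21) were among those lower, and miR-548h-5p (1.84 ± 0.33) and miR-548e-5p (1.47 ± 0.47) among those higher. The count of lower names in HEK293T also holds miR-548ai, miR-548aq-5p, miR-548ar-3p, miR-548au-5p and miR-548v, which passed the filter only through the deletion libraries. The count of 9 in HCT116 holds miR-548aw, which would not have passed without the deletion libraries. The count of 7 higher names in HEK293T holds miR-548ae-5p and miR-548l, which would not have passed without the AA libraries. These calls are therefore partly built into the names being tested. Relative to spike-ins, 7 names were higher with AA and 0 lower in HCT116, and 8 higher and 9 lower in HEK293T. On that scale the median log2 change over all names was 1.12 in HCT116 and 0.97 in HEK293T. The share of all names called was not counted. The AA effect differed between the lines in 0 of 32 names higher, where 0.948% of all names were, and 0 lower, where 2.96% were (edgeR, with 0 names at an unadjusted p under 0.05 and 0 calls by DESeq2).

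With WT, 8 of 32 tested names were higher in HEK293T than in HCT116, where 32.0% of all names were, and 12 lower, where 41.2% were, so the share of called names was below that over all names. The log2 ratio of the summed levels was -0.09, against -1.78 relative to spike-ins and -0.58 without miR-548b-3p. Relative to spike-ins 2 were higher and 25 lower, and with replicate as a block 4 were higher. The shares over all names were not counted for these settings. Several names were all but private to a line. miR-548h-5p had 0 reads in both HCT116 WT libraries and 86 and 162 in HEK293T, at least 46.1-fold higher with 0 set to 3 reads per library. miR-548y had 1 and 4 reads in HCT116 WT and 148 and 211 in HEK293T WT (6.23 ± 0.43, adjusted p = 1.03e-11). In the other direction, miR-548d-5p had 202 and 392 reads in HCT116 WT and 0 and 2 in HEK293T WT (adjusted p = 4.59e-11). miR-548o-5p had 12 and 26 reads against 0 and 0, at least 5.83-fold lower in HEK293T.

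Other names were present in both lines at different levels. miR-548ai (-3.16 ± 0.37), miR-548d-3p (-2.83 ± 0.27), miR-548n (-1.98 ± 0.40) and miR-548w (-1.36 ± 0.23) were lower in HEK293T. miR-548an (2.51 ± 0.45), miR-548b-3p (1.02 ± 0.17) and miR-548k (0.97 ± 0.33) were higher. miR-548b thus differed in both arms in opposite directions, since miR-548b-5p was lower in HEK293T (-0.97 ± 0.22). The difference between lines is also one between 2 sets of libraries, and line and set cannot be told apart.

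The arms of a hairpin can be compared within a library, where the scaling cancels. Arms were paired by name, and a name can join several loci, so a pair need not describe a single hairpin. miR-548b was placed at MIR548B, while no locus was placed for miR-548a or miR-548d. For miR-548b, 3p reads were 63.6% and 66.9% of both arms in HCT116 with WT, 49.7% and 58.2% with the deletion, and 64.0% and 62.4% with AA. The HEK293T libraries had 89.6% and 86.9% with WT, 91.4% and 93.3% with the deletion, and 82.8% and 86.5% with AA. With the deletion the log2 ratio of 3p to 5p fell by 0.66 in HCT116 (adjusted p = 0.0356) and rose by 0.70 in HEK293T (adjusted p = 0.0465), so the direction differed between the lines, a difference that was not tested. Both calls were close to the threshold. The HCT116 call was lost without WT replicate 2 (-0.56, adjusted p = 0.142) or deletion replicate 1 (-0.43, adjusted p = 0.195). The HEK293T call was lost without WT replicate 2 (0.50, adjusted p = 0.220) or deletion replicate 2 (0.51, adjusted p = 0.265).

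miR-548b was 1 of 6 miR-548 hairpins tested in HCT116, where 62.9% of 229 hairpins shifted, and 1 of 3 in HEK293T, where 57.8% of 180 did. With AA 0 of 6 and 0 of 3 shifted, where 13.5% and 10.6% of all hairpins did. The 2 arms of miR-548a rose together with the deletion in both lines, and its 3p share was 64.7% and 66.5% with WT and 50.6% and 59.0% with the deletion in HCT116, and 87.3% and 84.0% with WT and 91.0% and 91.1% with the deletion in HEK293T. Neither shift passed (adjusted p = 0.151 and 0.0675). miR-548d, named after its values were seen, had the lowest log2 change of the 3p to 5p ratio in HCT116 (-0.88 ± 0.39, adjusted p = 0.0571). Its 3p share was 60.6% and 39.3% with WT and 33.9% and 35.9% with the deletion, so the WT libraries differed from each other more than the second differed from the deletion. Without WT replicate 2 it passed (-1.51, adjusted p = 0.0191) where miR-548b did not, and without WT replicate 1 it measured -0.27 (adjusted p = 0.641).

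**Figure D5:**
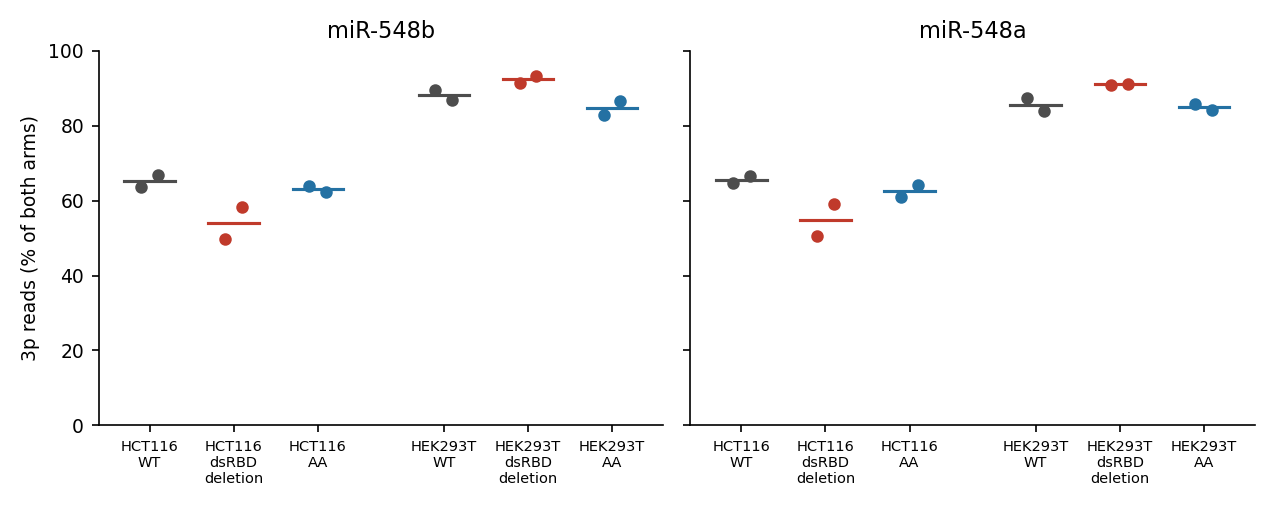
Share of 3p reads among the reads of both arms (%), for miR-548b (left) and miR-548a (right), in each library (points, 2 per group) with the group mean (lines). In HEK293T every library has 82.8% or more 3p reads of miR-548b, and in HCT116 at most 66.9%.

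miRNAs that derive from other repeats served as a comparison list: miR-570 and miR-603, which relate to MADE1, miRNAs from LINE-2 elements such as miR-28, miR-95, miR-151a and miR-708, from other DNA transposons such as miR-340 and miR-584, and from other repeats such as miR-378a, miR-335 and miR-342. No miR-603 name was among those tested in either line, so miR-570 alone stood for MADE1 in this list. Its 5p name, miR-570-5p, has the sequence of miR-548ai and had the same read count in every HEK293T library. The list counts miR-570-5p among its risers in both lines, but it is not separate from the family. With the deletion, 6 of 19 tested names of the list rose in HCT116, where 28.1% of all names did, and 11 fell, where 34.1% did (median -1.44). In HEK293T 3 of 16 rose, where 35.9% of all names did, and 12 fell, where 39.6% did (median -1.98). With AA, 0 rose and 3 fell in HCT116, where 1.26% and 6.16% of all names did, and 1 rose and 3 fell in HEK293T, where 6.23% and 15.2% did. miR-570-3p, whose sequence cGAAAACAgcaauuaccuuugc is 3 edits from the nearest miR-548 name, rose from 21.7 to 33.3 CPM in HCT116 (0.67 ± 0.25, adjusted p = 0.0380) and from 12.8 to 77.5 CPM in HEK293T (2.60 ± 0.26, adjusted p = 6.10e-06). miR-151a-3p, a LINE-2 miRNA, fell from 2473 to 178 CPM in HEK293T and from 5417 to 524 CPM in HCT116. miR-340-5p, from a DNA transposon of another kind, fell from 906 to 16.2 CPM in HEK293T. In HCT116 it measured 574 CPM with WT and 425 with the deletion and was not called (-0.43 ± 0.50, adjusted p = 0.456). The other repeat-derived names thus lay mostly on the falling side. In HEK293T miR-570-3p rose and the tested miR-548 names lay mostly on the rising side. The difference between the lists was not tested.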

How the data were processed

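AQ-seq libraries were, per the labels' protocols, made from 100 µg of total RNA and sequenced on an Illumina NovaSeq. The authors deposited raw counts, 1 table per library with a read count per miRNA name and for 30 spike-in RNAs. The submitters' processing notes name cutadapt, BWA and bedtools, and the builds hg38 and mm10, with versions and roles not given in the sources used here. How reads matching several names were counted is also not given. The members and lists were chosen with earlier results of these data known.

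Library sizes and tests did not use the spike-ins. The names of a line were filtered with filterByExpr (by group, minimum count 10), normalised with TMM and compared by the quasi-likelihood F test of edgeR 4.0.16 in R 4.3.3 on its 6 libraries, with 3 residual degrees of freedom, two-sided, with Benjamini-Hochberg adjustment over all names at 0.05. Line differences used all 12 libraries and names listed in both lines. SE is the log2 change divided by the square root of F. Arm use was an arm-by-group interaction blocked on library, for hairpins, paired by name, having 10 or more reads of each arm in 2 or more libraries. Each adjusted p in the text is from edgeR. Both kinds of test were run on simulated data. The simulations changed fewer names or hairpins than were called with the deletion, and the arm simulation used a fixed spread. They do not measure the error rate in these data.

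Values per library are given for names with a group mean of at least 20 CPM and for called names of at least 5 CPM; the rest are summarised or named. For AA, changes are given for the 3 most abundant names of a line and those with an unadjusted p under 0.05. Alternatives were DESeq2 1.42.0, other scalings (its size factors, library totals, spike-ins), no filter, merging of identical sequences, replicate as a block, 30 reads per arm, omission of the most abundant name and of each library. Replicate numbers were not used as pairs: their deviations correlated at -0.10 to 0.15. Sequences came from RefSeq and annotation from GENCODE 29 on GRCh38.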

Additional observations from a re-analysis of the deposited data

Results flagged for a closer look

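The effect of the dsRBD deletion differed between HEK293T and HCT116 in 14 miR-548 names by an interaction contrast over all 12 libraries (edgeR, adjusted over 844 names), given as HEK293T minus HCT116 on the log2 scale. It was higher in HEK293T for miR-548an (3.12), miR-548ar-3p (2.96), miR-548d-3p (2.88), miR-548a-3p (2.83), miR-548s (2.75), miR-548au-5p (2.13), miR-548o-3p (1.78), miR-548b-3p (1.64), miR-548w (1.54), miR-548ai (1.48) and miR-548a-5p (1.47). For miR-548a-3p the levels on the scale of 12 libraries were 32.9 CPM with WT and 48.3 with the deletion in HCT116, and 43.2 and 461 in HEK293T. It was lower in HEK293T for miR-548n (-2.18), miR-548ae-5p (-4.12) and miR-548l (-6.60). The last 2 rest on groups with 0 or 1 reads, and the value of miR-548l depends on the prior count. For miR-548n the HEK293T deletion libraries lay between the WT libraries, which were far apart. The names with levels under 10 CPM in every group were miR-548ar-3p, miR-548s, miR-548ae-5p and miR-548l. miR-548an was too scarce in HCT116 to be tested there, with 9 and 4 reads with WT and 3 and 1 with the deletion. Its HCT116 change was therefore hardly measured. The count of names with a higher effect in HEK293T was 6 to 10 when 1 library was left out, lowest without HCT116 dsRBD deletion replicate 2.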

How the results depend on the processing

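Precision was limited by 2 libraries per group and by low counts, which kept 35 of 62 listed miR-548 names in HCT116 and 34 of 60 in HEK293T out of the tests. Merging identical sequences moved no count of called names by over 1.5 times. Values below are counts of called miR-548 names, or log2 ratios where so named, and the cause of a change was not tested. The share of all names called was not counted under the alternatives, so these counts do not set the family apart.

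Relative to spike-ins, the dsRBD deletion against WT gave 0 higher and 16 lower in HCT116 and 6 higher in HEK293T; AA against WT gave 4 lower in HCT116 and 2 in HEK293T; AA against the deletion gave 7 higher and 0 lower in HCT116 and 9 lower in HEK293T; and HEK293T against HCT116 gave 2 higher and 25 lower. The summed log2 ratios were -1.16 (deletion), -0.64 (AA) and 0.52 (AA against deletion) in HCT116, 0.34, -0.47 and -0.82 in HEK293T, and -1.78 between the lines. For the HCT116 deletion the log2 change of single names turned to -1.06 (miR-548a-3p), -0.47 (miR-548a-5p), -0.54 (miR-548ai), -1.12 (miR-548b-3p), -0.45 (miR-548b-5p), -1.25 (miR-548d-5p), -1.67 (miR-548k), -0.51 (miR-548n), -0.83 (miR-548o-3p) and -1.56 (miR-548w). In HEK293T miR-548b-5p turned to -0.15 with the deletion, and with AA miR-548a-3p turned to -0.12 and miR-548y to -0.36, as did miR-548b-3p in HCT116 (-0.48).

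With library totals alone the deletion in HCT116 gave 14 higher and 0 lower, the line difference in its effect 5 higher, and miR-548d-3p turned to 0.37. The summed log2 ratios were 1.18, 0.16 and -1.02 in HCT116, 1.91, -0.046 and -1.96 in HEK293T, and 0.17 between the lines. With DESeq2 size factors AA against the deletion gave 5 lower in HCT116, and the summed log2 ratios were -0.59 for that comparison and, in HEK293T, 0.11 for AA and -1.70 for AA against the deletion. DESeq2 itself gave 0 lower for the HCT116 deletion, 5 lower for AA against the deletion and 5 higher for the line difference. Without a filter these were 2, 5 and 7, with 1 lower for AA in HEK293T, and miR-548k turned to -0.11 (HCT116 deletion) and miR-548y to -0.0027 (HEK293T AA). Without miR-548b-3p the summed log2 ratio was -0.71 for AA against the deletion in HCT116, 1.63, 0.16 and -1.47 in HEK293T (deletion, AA, AA against deletion), and -0.58 between the lines.

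The replicate numbers did not pair the libraries (correlations from -0.10 to 0.15), and with the replicate block the HCT116 deletion gave 0 lower and HEK293T against HCT116 gave 4 higher; it moved no other count by over 1.5 times.

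Leaving out 1 library at a time gave 0 to 1 lower for the HCT116 deletion, 0 to 1 lower for AA in each line, 3 to 7 lower for AA against the deletion in HCT116 and 4 to 8 higher in HEK293T, and 6 to 10 higher and 1 to 4 lower for the line difference. Hairpins with an arm shift numbered 0 to 1 for the deletion in each line. The summed log2 ratios ran from 0.43 to 0.67 (deletion) and -0.61 to -0.53 (AA against deletion) in HCT116, and from 1.68 to 1.81, -0.063 to 0.075 (AA) and -1.77 to -1.56 in HEK293T. Single names that turned ran from -0.0067 to 1.26 (miR-548d-5p) and -0.35 to 0.40 (miR-548k) for the HCT116 deletion, -0.74 to 0.48 for miR-548d-5p with AA in HCT116, -1.88 to 0.39 for miR-548n with the deletion in HEK293T and -0.048 to 0.26 for miR-548y with AA in HEK293T.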
